A study of Homo sapiens with 4 samples.

Results

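H3K27ac, the acetylation of lysine 27 on histone H3, was mapped in HCT116, a cell line of human colorectal carcinoma, as the list of all peaks called in the H3K27ac immunoprecipitate (IP) over its own input. Each region of the list was taken once, with its first row and with no threshold on the caller's columns, which gave 15789 of the 28916 peaks of the series. The other 13127 peaks came from an IP of HSF1, the transcription factor of the heat shock response, over a separate input. The cells of all 4 libraries (H3K27ac IP, H3K27ac input, HSF1 IP and HSF1 input) had received no treatment before they were fixed with formalin. With 1 library in each group there was no replicate error for any value, so the intervals given cover counting error only, and no test between conditions was possible. The H3K27ac peaks held 485046 tags (sequenced fragments counted inside a peak by the authors) and covered 22.6 Mb of the hg19 genome. The inputs entered only through the peak calling, and the number of reads behind each library is unknown here.

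Acetylation of lysine 27 is written by the acetyltransferases p300 and CBP and marks the nucleosomes beside active promoters and enhancers. At an active gene start the DNA itself is largely free of nucleosomes, and the acetylated ones stand on either side of it. Wide stretches of the mark often lie at genes that characterise a cell type.

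Promoter sequences of genes with a strong peak at the start are shown first, because the position of the summits and the base composition of the starts are followed through the results. Each runs from 250 bases before to 50 bases after the gene start (RefSeq, GRCh38.p14) and the CG pairs are in capitals. The first 5 genes had the most tags among peaks with their summit within 1 kb of a start, after leaving out genes with more than 1 start or no entry in the sequence table and loci with near-identical copies elsewhere (WASH8P, MST1P2, ESPNP, NOTCH2 and RNVU1-18). CD3D, ALB and SYP are markers of T cells, liver and neurons to which no H3K27ac peak was assigned.
GPR15: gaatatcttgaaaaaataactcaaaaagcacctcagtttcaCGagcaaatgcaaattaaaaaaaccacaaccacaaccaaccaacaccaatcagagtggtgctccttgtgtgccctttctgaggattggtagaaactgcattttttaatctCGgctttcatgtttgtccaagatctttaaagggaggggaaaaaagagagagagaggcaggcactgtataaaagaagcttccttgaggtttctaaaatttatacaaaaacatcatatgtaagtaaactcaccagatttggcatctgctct
ABCC2: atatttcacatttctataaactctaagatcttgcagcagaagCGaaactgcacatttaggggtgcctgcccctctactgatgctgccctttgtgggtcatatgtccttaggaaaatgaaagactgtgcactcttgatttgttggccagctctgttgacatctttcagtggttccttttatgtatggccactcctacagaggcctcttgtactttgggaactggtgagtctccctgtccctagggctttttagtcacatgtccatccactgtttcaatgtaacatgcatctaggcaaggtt
ANKRD40: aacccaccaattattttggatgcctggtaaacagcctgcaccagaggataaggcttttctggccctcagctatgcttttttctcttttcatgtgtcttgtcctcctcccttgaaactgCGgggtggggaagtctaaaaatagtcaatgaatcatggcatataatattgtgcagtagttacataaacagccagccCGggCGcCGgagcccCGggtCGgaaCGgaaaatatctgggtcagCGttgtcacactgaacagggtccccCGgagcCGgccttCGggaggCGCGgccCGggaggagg
CPOX: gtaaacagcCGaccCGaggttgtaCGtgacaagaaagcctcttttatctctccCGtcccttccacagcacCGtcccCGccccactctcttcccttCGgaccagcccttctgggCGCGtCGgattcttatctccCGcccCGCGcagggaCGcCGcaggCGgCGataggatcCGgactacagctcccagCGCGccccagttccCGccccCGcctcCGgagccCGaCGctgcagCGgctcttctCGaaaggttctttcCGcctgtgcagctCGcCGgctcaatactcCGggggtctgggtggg
SMNDC1: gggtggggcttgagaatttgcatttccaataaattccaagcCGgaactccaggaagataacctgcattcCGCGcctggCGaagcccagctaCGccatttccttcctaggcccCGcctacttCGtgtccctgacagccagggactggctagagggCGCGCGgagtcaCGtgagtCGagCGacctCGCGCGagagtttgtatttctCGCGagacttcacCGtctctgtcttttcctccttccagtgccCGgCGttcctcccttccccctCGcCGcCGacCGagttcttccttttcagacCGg
CD3D: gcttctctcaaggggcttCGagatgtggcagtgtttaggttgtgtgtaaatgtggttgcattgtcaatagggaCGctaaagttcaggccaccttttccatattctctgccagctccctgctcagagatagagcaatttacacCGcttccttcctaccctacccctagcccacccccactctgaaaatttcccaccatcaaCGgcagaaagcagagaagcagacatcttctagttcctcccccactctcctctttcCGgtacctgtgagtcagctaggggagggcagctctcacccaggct
ALB: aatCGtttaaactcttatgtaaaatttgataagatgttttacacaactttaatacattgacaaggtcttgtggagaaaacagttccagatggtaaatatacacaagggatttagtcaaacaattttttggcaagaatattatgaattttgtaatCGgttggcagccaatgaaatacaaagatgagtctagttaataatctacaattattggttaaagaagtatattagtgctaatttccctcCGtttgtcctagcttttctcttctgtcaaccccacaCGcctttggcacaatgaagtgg
SYP: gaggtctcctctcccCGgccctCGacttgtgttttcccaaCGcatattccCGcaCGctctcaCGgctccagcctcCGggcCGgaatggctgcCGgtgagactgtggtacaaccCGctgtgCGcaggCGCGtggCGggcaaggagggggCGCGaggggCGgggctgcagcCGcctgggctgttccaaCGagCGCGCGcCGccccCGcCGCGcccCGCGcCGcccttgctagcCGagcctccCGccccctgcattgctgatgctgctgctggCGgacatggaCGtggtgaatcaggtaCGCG
GPR15 (a receptor that guides T cells to the colon, chr3:98531728-98532027, plus strand) had 2 CG pairs and ABCC2 (an exporter of organic anions, chr10:99782390-99782689, plus strand) had 1. ANKRD40 (chr17:50707865-50708164, minus strand) had 14, SMNDC1 (a splicing factor, chr10:110304871-110305170, minus strand) 26 and CPOX (an enzyme of heme synthesis, chr3:98593562-98593861, minus strand) 31. The strongest start peaks thus stood on both CG-poor and CG-rich sequence. Among the genes without a peak, CD3D (chr11:118342656-118342955, minus strand) had 5 CG pairs, ALB (chr4:73404037-73404336, plus strand) had 4 and SYP (chrX:49200144-49200443, minus strand) had 35, so CG-rich sequence was also found at a start with no peak.

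The listed H3K27ac peaks were narrow and of even density. The median width was 1198 bp (95% interval 1186 to 1210), against 1313 bp in the HSF1 list, with a range of 438 to 18476 bp. A peak held a median of 24 tags, against 20 in the HSF1 list, and between 15 and 535 tags. Most of the difference in tags between peaks was a difference in width, with a Spearman correlation of 0.957 across peaks, which are not independent replicates and share 1 library. Per kb of peak the median was 20.5 tags (quartiles 19.3 and 22.2), against 15.4 in the HSF1 list. The lowest values were 15.8 tags per kb and 15 tags, against 11.5 and 13 in the HSF1 list. Peaks below the caller's limit were not listed, and 26.8% of the H3K27ac peaks had under 20 tags. The even density and the difference between the lists cannot be told apart from that limit and from sequencing depth. The 3946 widest peaks, from 1646 bp upwards, held 44.1% of all tags in peaks, and its median density of 21.6 tags per kb was close to the 20.4 of the 3949 narrowest ones, up to 961 bp. The 245 peaks with 100 or more tags held 7.62% of the tags. The false discovery rate deposited with the peaks was nowhere below 8.99%, and 258 peaks with a median of 107 tags had a rate of 100%. That column was not used to select peaks, and the input reads behind it were not analysed here.

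Among the listed peaks, which all passed the caller's limit, size varied little with the distance from genes. The promoter class (midpoint within 2 kb of the assigned start) held 2643 peaks, with a median of 25 tags. Peaks 2 to 20 kb away, the largest group with 4962 peaks (31.4%, Clopper-Pearson interval 30.7 to 32.2), had 24 tags, and the 276 peaks more than 500 kb away had 22. The density was 20.7 tags per kb in the promoter class and 20.2 beyond 500 kb. The distances themselves separated the lists, since 16.7% (16.2 to 17.3) of the H3K27ac peaks and 1.46% (1.26 to 1.68) of the HSF1 peaks lay within 2 kb, while 16.2% of the H3K27ac peaks and 45.5% of the HSF1 peaks lay at 100 to 500 kb. The sides of the start differed, as 2876 of the peaks at 2 to 20 kb were before the start and 2086 after it, whereas at 20 to 50 kb 1115 were before and 2032 after. Genes were assigned by position, and whether a peak acts on that gene was not measured.

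**Figure D1:**
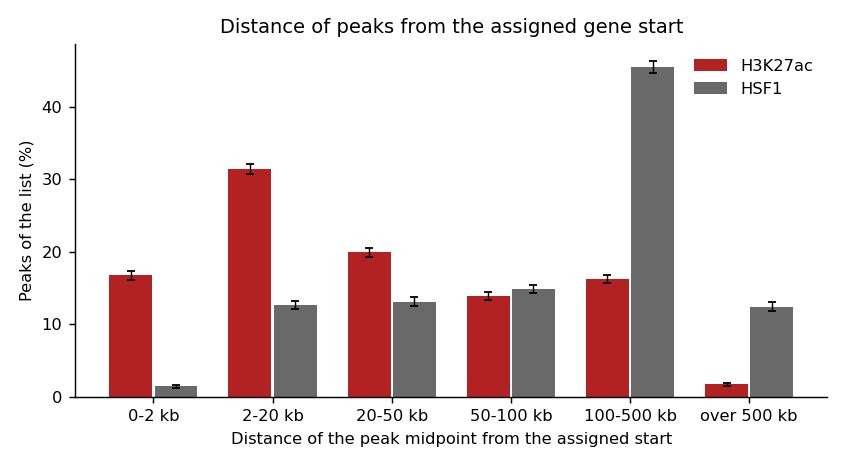
Share of peaks (%) in each class of distance between the peak midpoint and the assigned gene start, for the H3K27ac list (red) and the HSF1 list (grey), with exact 95% intervals. The H3K27ac bars peak at 2 to 20 kb with 31.4%, and the HSF1 bars at 100 to 500 kb with 45.5%.

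Close to the gene start the summits, the positions of most tags within a peak, avoided the start itself. A summit lay within 1 kb of the assigned start in 1411 H3K27ac peaks (8.94%, 8.50 to 9.39), against 96 HSF1 peaks (0.731%, 0.593 to 0.892). In bins of 100 bp the emptiest stretch was the 100 bp just before the start, with 9 summits. The fullest bin after the start was at 200 to 300 bp, with 113 summits, and the fullest before it was at 1000 to 900 bp, with 100. Within 1 kb, 765 summits were after the start and 646 before it. The 150 bp on either side of the start held 69 summits, or 230 per kb, and the flanks at 200 to 700 bp held 810, or 810 per kb. The ratio of the densities was 0.284 (0.219 to 0.363) for H3K27ac, against 1.54 (0.828 to 2.75) for HSF1, from 18 and 39 summits, and the intervals do not overlap. With peak midpoints in place of summits the H3K27ac ratio was 0.448.

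**Figure D2:**
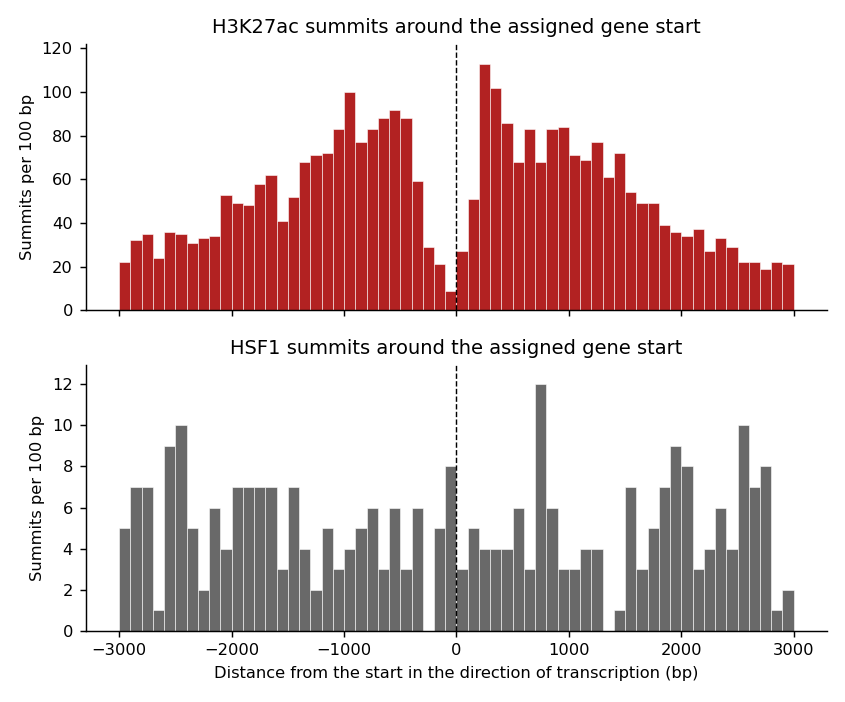
Number of summits per 100 bp within 3 kb of the assigned gene start, by distance in the direction of transcription, for H3K27ac (upper panel) and HSF1 (lower panel, with its own axis). The H3K27ac summits fall to 9 in the 100 bp before the start and reach 113 at 200 to 300 bp after it.

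Some peaks spanned the start. It lay inside 582 H3K27ac peaks (3.69% of the list), against 66 HSF1 peaks (0.503%), and the summit was then a median of 372 bp (338 to 400) away for H3K27ac and 404 bp (258 to 561) for HSF1, with overlapping intervals. The H3K27ac summit was after the start in 372 of these peaks and before it in 210. The 69 summits within 150 bp counted above were 11.9% of the 582 peaks, against 27.3% (18 of 66) for HSF1. Starts with CG-rich and CG-poor promoters could be compared for protein-coding genes outside chromosome 8. With an observed over expected CG ratio of 0.6 or more, 23 summits lay within 150 bp and 460 in the flanks, a density ratio of 0.167 (0.105 to 0.253). Below 0.6 the counts were 8 and 92 and the ratio 0.290 (0.122 to 0.595), so the intervals of both kinds of promoter overlap.

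At 173 of the 2402 assigned gene starts with a summit within 2 kb, 1 peak had its summit before and another after the start. A gene with more than 1 assigned start could be counted more than once. The 2 peaks of such a pair were separated by a median gap of 665 bp (quartiles 314 and 1005), and the start lay in the gap for 114 pairs. Their median summits were 994 bp before and 882 bp after the start, with medians of 26 tags before and 27 after. The pair with most tags was at ITGA3, an integrin subunit, with 128 tags before the start and 107 after it. The pair at RPTOR, a subunit of the mTOR complex, was the closest to the start among those named here, with summits 329 bp before and 334 bp after it and 59 and 55 tags. Pairs with the start in the gap included those at SRSF1, a splicing factor, with 37 tags before and 79 after, at H3-3B, which encodes histone H3.3, with 53 and 51, and at SUMO2, a ubiquitin-like modifier, with 37 and 61. The peak after the start had more tags in 90 pairs and the peak before it in 77, so neither side was consistently larger. These genes were chosen from the pairs with most tags after their values were seen.

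The sequence of the starts could be compared for 892 of the 1033 protein-coding genes outside chromosome 8 with a summit within 1 kb (86.4%) and for 14596 of the other 17669 (82.6%). For genes of all classes only 74.2% of those with a summit within 1 kb had a sequence, which is too few for such a comparison. The acetylated promoters had a median observed over expected CG ratio of 0.845 (0.829 to 0.859), against 0.762 (0.757 to 0.767) for the other protein-coding promoters, and a ratio of 0.6 or more was found in 83.5% of them, against 65.4% of the others. Promoters of genes with a peak assigned but no summit within 1 kb lay between, with a median of 0.808 (0.796 to 0.816), above the 0.746 (0.737 to 0.753) of genes with no peak. Letters of 7 motifs were then searched on both strands of the 300 bases. GGGCGG, the GC box of SP and KLF factors, was present in 71.0% (67.9 to 73.9) of the acetylated promoters and in 58.4% (57.6 to 59.2) of the others, with 59.1% over all. ACTTCCG, part of an ETS motif, was present in 15.5% (13.2 to 18.0) of the acetylated and 9.65% (9.17 to 10.1) of the other promoters, with 9.98% over all. GCATGCGC, part of the NRF1 motif, was in 6.05% (4.58 to 7.83) of the acetylated promoters against 4.21% (3.89 to 4.54). For these 3 motifs the intervals of the acetylated and the other promoters do not overlap. For CACGTG, the E-box of MYC and USF, at 11.1% (9.11 to 13.3) against 8.76% (8.30 to 9.23), TGACTCA (AP-1), at 4.93% (3.61 to 6.57) against 3.59% (3.29 to 3.90), CCAAT (NF-Y), at 37.1% (33.9 to 40.4) against 36.4% (35.7 to 37.2), and TATAAA, at 8.18% (6.47 to 10.2) against 9.71% (9.23 to 10.2), the intervals overlap. Over all these promoters GCATGCGC was in 4.31%, CACGTG in 8.89%, TGACTCA in 3.67%, CCAAT in 36.5% and TATAAA in 9.62%. None of the motifs contains another, those of SP and KLF, ETS, NRF1 and E-box factors hold a CG pair themselves, and a match describes letters and not a bound site. In the promoters printed above GGGCGG was found in CPOX and SYP, CACGTG in SMNDC1, TGACTCA in CD3D, TATAAA in GPR15 and ABCC2, and CCAAT in GPR15, ANKRD40, SMNDC1 and ALB.

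A peak was assigned to 6783 gene names, and 6765 of 29849 RefSeq genes on chromosomes 1 to 22 and X had at least 1 (22.7%). A summit within 1 kb of the start was found for 1343 of them (4.5%). The share with a peak was 26.6% (26.0 to 27.2) of protein-coding genes, 15.9% (15.03 to 16.8) of lncRNA genes, 16.3% (14.2 to 18.5) of transcribed pseudogenes, 14.5% (12.9 to 16.2) of microRNA genes and 10.4% (7.91 to 13.2) of snoRNA genes. A near summit was found at 5.66% (5.34 to 5.998) of protein-coding genes, 3.48% (2.51 to 4.69) of transcribed pseudogenes, 2.40% (1.29 to 4.07) of snoRNA genes, 2.21% (1.87 to 2.59) of lncRNA genes and 1.88% (1.32 to 2.60) of microRNA genes, and the intervals of the last 3 classes overlap. Once a peak was assigned, the summed tags were alike, with medians of 36 tags for protein-coding and 38 for lncRNA genes. A single peak was the rule, as 3763 gene names (55.5%) had only 1, while 180 had 10 or more.

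Acetylation was concentrated on few genes. The 68 genes (1%) with the most tags held 14.9% of all tags in peaks and the 678 genes (10%) with the most tags held 46.5%. NSMCE2, which encodes a SUMO ligase of the SMC5/6 complex, led with 3804 tags in 48 peaks, 47 of them intronic. VTI1A, a SNARE protein of vesicle fusion, had 2727 tags in 37 peaks and TRIB1, a pseudokinase that guides protein degradation, had 2522 tags in 33 peaks, of which 28 were intergenic. The microRNA gene MIR378D2 reached 2169 tags with 15 peaks, among them the widest peak of the list. These first 4 genes lie on chromosomes 8 and 10, which are taken up below. PHLDB2, a protein of the cell cortex that anchors microtubules, had 1846 tags in 30 peaks, with a summit 244 bp after its start. PCDH7, a protocadherin, had 1778 tags in 55 peaks, none of which had more than 80 tags. RAD51B, of homologous recombination, had 1459 tags in 46 peaks, and its largest held 76. The remaining genes of the 12 with most tags were SKAP1, a signalling adaptor (1494 tags in 26 peaks), the lncRNA gene CASC21 (1426 in 23), SMURF2, a ubiquitin ligase of the TGF-beta pathway (1402 in 16), KRR1, of ribosome assembly (1397 in 39), and SYTL3, a Rab-binding protein of exocytosis (1395 in 14). High sums therefore came from many small peaks at PCDH7, RAD51B and KRR1 and from fewer large ones at MIR378D2 and SYTL3, where single peaks reached 535 and 313 tags. All 39 peaks of KRR1 lay before its start, between 9.82 and 258 kb away, and all 14 of SYTL3 were intronic. A summit within 1 kb of the start was found for 10 of the 25 genes with most tags and 28 of the top 68, against 1345 of all 6783 gene names with a peak. The top genes were picked by tags summed over peaks, and the 12 named had 14 to 55 peaks each, against a median of 1. More peaks give more chances of a summit near the start, so these shares are not directly comparable. Over all gene names with a peak, the median was 37 tags with such a summit and 36 without.

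**Figure D3:**
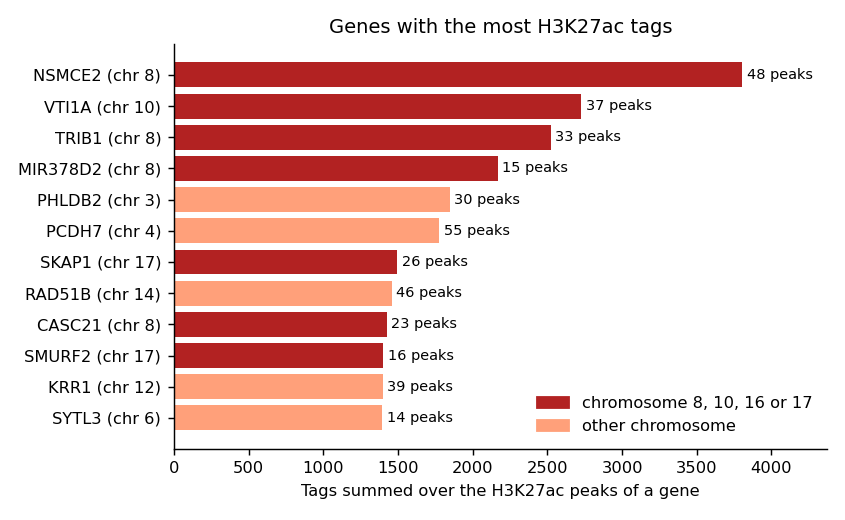
Tags summed over all H3K27ac peaks assigned to a gene, for the 12 genes with the most, with the number of peaks beside each bar and genes on chromosomes 8, 10, 16 and 17 in the darker colour. NSMCE2 leads with 3804 tags in 48 peaks, and SYTL3 reaches 1395 tags with 14.

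Of the 10 widest peaks 4 covered a start, those at CCAT1, NOTCH2NLA, WASH8P and NBPF1. A wider peak is more likely to contain a start, so this count is not comparable with the 3.69% of all peaks. The widest spanned 18.5 kb at MIR378D2 (chr8:94859070-94877545, 535 tags), 64.4 kb after the assigned start. The peak at CCAT1, a lncRNA gene upstream of MYC, spanned 15.4 kb with 402 tags and covered the start, with its summit 3.10 kb before it. ACSL5, an acyl-CoA synthetase of the intestinal epithelium, had an intronic peak of 13.7 kb with 399 tags, and NSMCE2 (10.2 kb, 291 tags) and SYTL3 (9.89 kb, 313 tags) had intronic ones too. The other 5 of the 10 widest peaks were assigned to LOC101929950 (11.3 kb), SYT15-AS1 (9.76 kb), NOTCH2NLA (9.65 kb), WASH8P (9.52 kb) and NBPF1 (9.47 kb), which belong to duplicated or repeated loci, where reads of near-identical copies can be counted at 1 copy or lost. The same holds for 5 of the 10 peaks of highest density, RNVU1-18 (47.3 tags per kb), MST1P2 (41.3), ESPNP (39.9), BMS1P23 (39.0) and NOTCH2NLA (38.4). The densest peak on chromosomes 1 to 22 and X, assigned to LINC03015 (60.5), began 23598 bases from the start of chromosome 7. SNORD141A (43.8), the mucin gene MUC3A (42.0), SYTL3 (40.3) and DNMBP (38.3), a regulator of the actin cytoskeleton, completed the 10 densest.

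Peaks with their summit within 1 kb of a start reached up to 289 tags, against 535 in the widest peak of the list. GPR15 had 154 tags in 6.12 kb with the summit 231 bp after its start, and ABCC2 had 145 tags in 4.84 kb with the summit 778 bp before it. ACSL5 had a second peak here, with 127 tags and the summit 982 bp after the start of another transcript. SCNN1A, a subunit of the epithelial sodium channel, had 119 tags, and MIR21, a microRNA abundant in carcinomas, had 112 tags in a peak that covered its start. PDXDC1 had 110 tags and NOTCH2 114, and both share sequence with other copies, as do WASH8P (289 tags), MST1P2 (228) and ESPNP (124). Of the other genes whose promoters are printed above, CPOX had 96 tags with the summit 259 bp after its start and ANKRD40 had 96 with the summit 606 bp before it.

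Of the genes that mark the tissue of origin, 11 of 24 epithelial and colonic markers had a peak (45.8%, 25.6 to 67.2), against 22.7% of all RefSeq genes and 26.6% of protein-coding ones, of which the interval includes the second, with a median of 85 tags where all genes with a peak had 36. EHF, an epithelial transcription factor, had 385 tags in 12 peaks, the nearest summit 433 bp before its start. KRT20, an intestinal keratin, had 231 tags in 5 peaks, ELF3, another epithelial factor, had 147 in 5, and CLDN4, a tight junction protein, had 125 in 5 with a summit 621 bp before its start. Of 51 markers of leukocytes and red cells, liver, neurons and glia, and muscle, fibroblasts and endothelium, 8 had a peak assigned and 0 had a summit within 1 kb of the start, which by the limit of 3 counts in 51 allows a share of up to 5.88%, above the 4.5% of all genes. These 8 were PTPRC (25 tags, 91.7 kb after the start), FGB (17 tags), VWF (67 tags in 3 peaks), DCN (46 tags in 2), STMN2 (19 tags), SYT1 (316 tags in 14), NEUROD1 (172 in 7) and MAP2 (155 in 7). The neuronal genes SYT1, NEUROD1 and MAP2 thus had several peaks assigned, at distances of 8.26, 64.6 and 56.0 kb or more. As a list, neuronal and glial markers had a peak at 4 of 12 genes (33.3%, 9.92 to 65.1), with a median of 163.5 tags. The medians were 56.5 tags for muscle, fibroblast and endothelial markers, 25 for leukocyte and erythroid markers and 17 for liver markers. A median above that of all genes was thus not particular to the epithelial list. The other defining markers of these lineages had 0 peaks.

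Among lists of gene groups the actin cytoskeleton had the largest share, with a peak at 24 of 40 genes (60.0%, 43.3 to 75.1) and a near summit at 10 (25%, 12.7 to 41.2), against 22.7% and 4.5% of all genes and 26.6% and 5.66% of protein-coding genes. The gene lists, markers included, were chosen with earlier results of these data known. An interval above or below these shares therefore describes a list and is no support for a difference. PALLD, an actin-bundling protein, had 943 tags in 26 peaks, ACTN4, an alpha-actinin, had 227 in 4, ACTG1, cytoplasmic gamma-actin, had 214 in 5 and LIMA1, an actin-binding LIM protein, had 203 in 7. Of these 4 genes, LIMA1 had a summit 120 bp before its start and ACTG1 had one 476 bp before it, while all 4 peaks of ACTN4 were in its introns. KLF and SP transcription factors had a peak at 14 of 24 genes (58.3%, 36.6 to 77.9), with most tags at KLF4 (405 in 14 peaks), KLF6 (192 in 7), KLF5 (190 in 8) and SP1 (189 in 3). A near summit was found at 3 of the 24 (12.5%, 2.66 to 32.4), an interval that includes both 4.5% and 5.66%. The 14 peaks of KLF4 were all intergenic, with 13 of them 67.2 to 681 kb before the start and the largest, of 60 tags, 7.89 kb after it.

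The intervals of splicing factors, lipid synthesis and histone genes lay above both 22.7% and 26.6%, and that of the cytokine list above 22.7% but not 26.6%. All members of these 4 lists are protein-coding. Splicing factors, mostly of the hnRNP and SR families, had a peak at 16 of 34 genes (47.1%, 29.8 to 64.9), among them RBFOX2 (213 tags), SRSF1 (181), SRSF2 (74) and HNRNPU (72). Genes of cholesterol and fatty acid synthesis had one at 15 of 33 (45.5%, 28.1 to 63.6), with tags at SCD, the stearoyl-CoA desaturase (164 in 3 peaks), ELOVL6 (115 in 5) and INSIG2 (109 in 4). The nearest summit was 0.421 kb from the start at SCD, 38.9 kb at ELOVL6 and 20.5 kb at INSIG2. Replication-dependent histone genes, which lie in dense clusters, had one at 20 of 48 (41.7%, 27.6 to 56.8), with 133 tags at H2BC3, 85 at H2AC4, 79 at H2BC13 and 78 at H2BC7. Chemokine, interleukin and interferon response genes had one at 15 of 35 (42.9%, 26.3 to 60.6), with IL18 (115 tags), IL15 (110), LIF (88) and CXCL8 (80) highest, and a near summit at 3. The nearest summit was 43.4 kb from the start at IL15 and 31.4 kb at CXCL8, against 1.47 kb at IL18 and 7.78 kb at LIF. Long noncoding RNA genes known in colorectal cancer had one at 16 of 30 (53.3%, 34.3 to 71.7), against 15.9% of all lncRNA genes, with CASC19 (504 tags in 5 peaks), MIR31HG (439 in 15), CCAT1 (402 in 1) and LINC00511 (245 in 3) highest. A near summit was found at 3 of the 30 (10%, 2.11 to 26.5), an interval that includes the 2.21% of all lncRNA genes. CASC19 and CCAT1 are neighbours on chromosome 8, and MIR31HG had peaks of 18 to 44 tags on both sides of its start.

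In the other groups the interval included both 22.7% and 26.6%. The cell cycle list had a peak at 15 of 41 genes (36.6%, 22.1 to 53.1), and CDK6, a kinase of the G1 phase, had 443 tags in 13 peaks of 25 to 54 tags, 12 of them intronic. CDKN2B had 109 tags, CDK1 96 and E2F3 77. Cytosolic translation factors had one at 12 of 36 (33.3%, 18.6 to 51.0), with PABPC1 (336 tags), EEF1A1 (180), EIF3H (155) and EIF3C (147) highest, the nuclear-encoded respiratory chain at 12 of 45 (26.7%, 14.6 to 41.9), with NDUFV2 (152), SDHD (130), ATP5MC1 (66) and CYCS (57), and HOX genes at 10 of 39 (25.6%, 13.04 to 42.1). HOXB1 (422 tags), HOXB3 (164), HOXB6 (78) and HOXB7 (75) had the most tags among HOX genes, so all 4 were in the HOXB cluster on chromosome 17. RNA polymerase II, Mediator and associated transcription factors had a peak at 9 of 43 genes (20.9%, 10.0 to 36.0), led by MED13 (142), MED23 (39), SUPT16H (27) and POLR2H (24). Several of these sums came from distant peaks. The nearest summit was 134 kb from the start at CDKN2B, 79.7 kb at MED13, 56.9 kb at EEF1A1, 44.8 kb at NDUFV2 and 32.9 kb at SDHD. Among the genes named for these groups, CDK1, E2F3, EIF3H, EIF3C and HOXB7 had a summit within 1 kb. A count over a list does not take account of gene length or of the spacing of genes, and shares above or below that of all genes were not tested. Of the loci of the study, ANXA11, an annexin, had 55 tags in 2 intronic peaks 4.99 and 7.68 kb after the start. No peak was assigned to LINC00857, SLC1A5, HSF1, EP300 or MTOR.

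**Figure D4:**
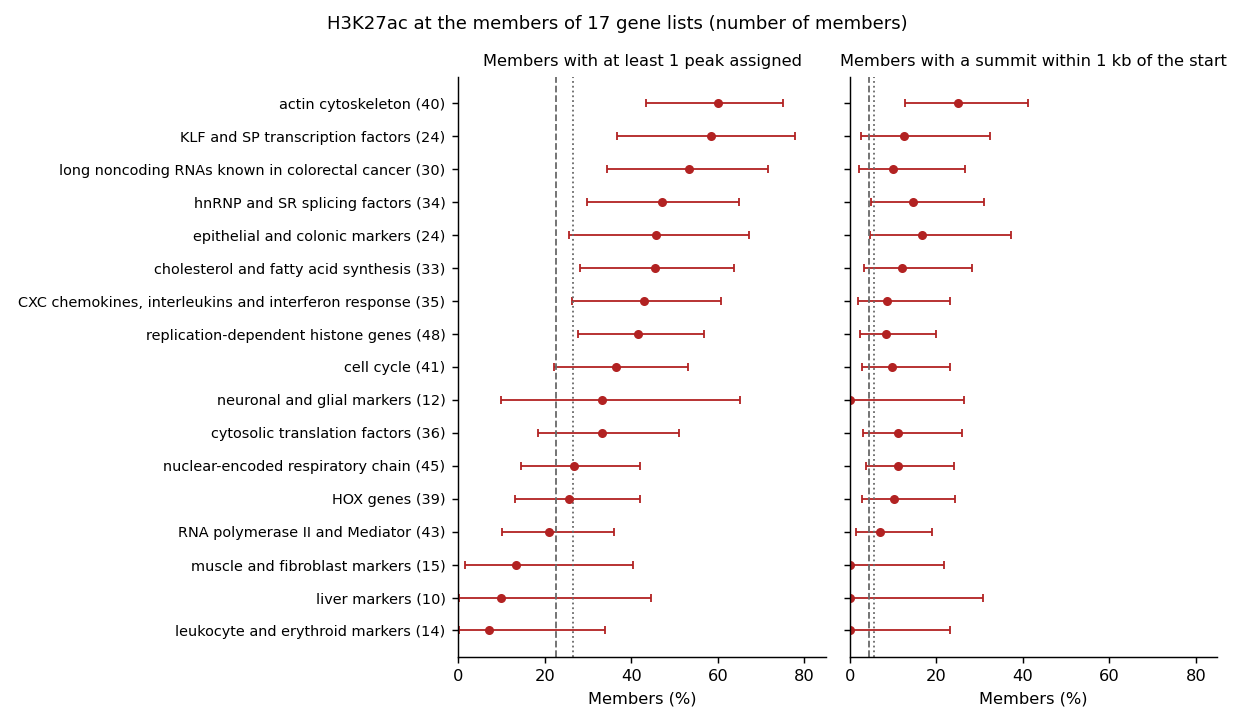
Share of members (%) with at least 1 H3K27ac peak assigned (left) and with a summit within 1 kb of the start (right) in 17 gene lists, with the number of members in brackets. Points are shares with exact 95% intervals, and the dashed lines mark 22.7% and 4.5% of all RefSeq genes and the dotted lines 26.6% and 5.66% of protein-coding genes. The actin cytoskeleton has the largest share in both panels, with 60.0% and 25%.

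The chromosomes differed in peak size. Peaks held a median of 36 tags (35 to 38) on chromosome 17, 33 (32 to 34) on chromosome 8, 29 (28 to 30) on chromosome 10 and 26 (24 to 28) on chromosome 16, against 22 to 23 on the other 18 autosomes. The HSF1 peaks were larger on these chromosomes too, with medians of 27.5 tags on chromosome 17, 30 on chromosome 8, 25 on chromosome 10 and 23 on chromosome 16, against 18 to 20 on the other autosomes. HCT116 carries extra copies of parts of these 4 chromosomes, and copy number and acetylation per copy cannot be told apart in these lists. The difference was mainly one of width, with a median of 1495 bp on the 4 chromosomes together and 1134 bp on the other autosomes, while the density was 21.5 and 20.2 tags per kb. The 4 chromosomes held 30.7% of all tags in H3K27ac peaks, and 14 of the 25 genes with most tags. Without them the share of tags held by the top 1% of genes was 12.8% instead of 14.9%.

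**Figure D5:**
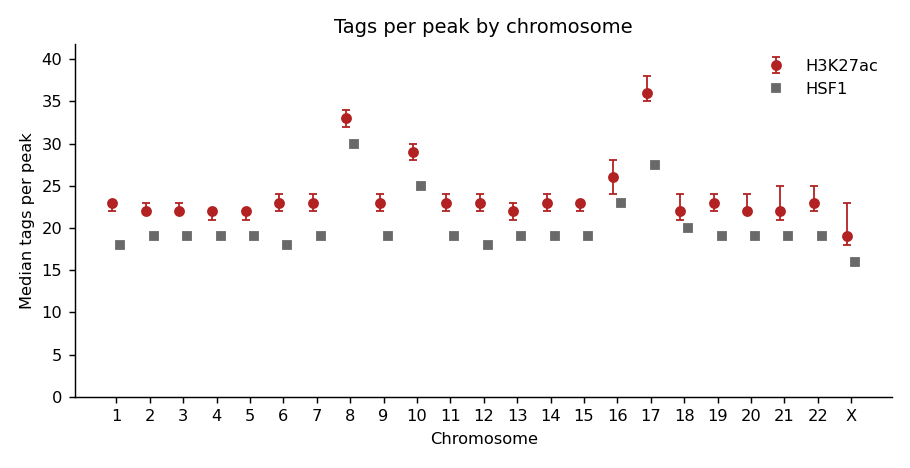
Median tags per peak on each chromosome for the H3K27ac list (red circles, with 95% intervals of the median) and the HSF1 list (grey squares). Chromosomes 8, 10, 16 and 17 stand above the other autosomes in both lists.

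The number of peaks per gene also differed. Chromosome 8 had 103 peaks per 100 RefSeq genes, and among the autosomes outside the 4 chromosomes above the value lay between 18.2 on chromosome 19 and 84.0 on chromosome 4. On chromosome 19, 41.2% of the peaks were in the promoter class, with a median distance of 3.77 kb from the start, against 10.03% and 46.4 kb on chromosome 4. Chromosome X had 20 peaks for 1175 genes, or 1.70 per 100 genes, and the HSF1 list had 37 peaks there, so both lists were nearly empty on X. Neighbouring H3K27ac peaks were separated by a median of 30.8 kb, and 34.8% of the gaps were under 10 kb.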

How the data were processed

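ChIP-seq of HCT116 cells gave 1 IP and 1 input library for H3K27ac and the same for HSF1. Per the submitters' processing notes, FastQC and Bowtie2 2.2.7 were used with hg19, and by the study's methods peaks were found with MACS, comparing an IP with its input, so no libraries were pooled. Read filters and mapped totals: not given in the sources used here. Tag counts per peak are the authors' whole numbers with no normalization, so a peak's count grows with its width. The deposited score (from the caller's p-value) was not used. The authors' fold ratio over local background and false discovery rate in percent were described only as they stand and selected nothing.

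Of 39350 H3K27ac rows (1 per peak and transcript) the first of each region was kept, and in 89.7% of regions it named the nearest listed start. Summit distances run in the direction of transcription. Accessions were matched to RefSeq (GRCh38.p14) for symbols and promoter sequences only, and 24 H3K27ac peaks did not match. The observed over expected CG ratio was the CG count times the length over the product of the C and G counts. Shares have exact 95% Clopper-Pearson intervals, medians have order-statistic intervals, and neither covers replicate error. No test between groups was run. The members, gene lists and named genes were chosen with earlier results of these data known. Named were the 12 genes with most tags, the 10 widest, 10 densest and 10 largest start peaks on chromosomes 1 to 22 and X, up to 4 members of each list with most tags, the loci of the study, and genes said to be chosen afterwards. Some items under this rule are left out of the text. Alternatives changed the start assigned, the position used, a minimum of 20 tags and the chromosomes kept. The restriction of promoter sequences to protein-coding genes outside chromosome 8, which the table does not cover, was chosen after seeing how many genes matched. Steps were tested on simulated data. The scripts ran in Python 3.11.15 (scipy 1.17.1, numpy 2.4.6, matplotlib 3.10.9, pandas 2.3.3).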

Additional observations from a re-analysis of the deposited data

How the results depend on the processing

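Of 40 alternative values over 13 results, 21 stayed within the interval of the value reported and 19 did not. With at least 20 tags per peak the median width was 1395 bp, the median count 30 tags and the density 20.9 tags per kb, 31.1% of peaks lay beyond 50 kb, the top 1% and 10% of genes held 14.6% and 46.3% of the tags, and 17.8% of RefSeq genes had a peak. Without chromosomes 8, 10, 16 and 17 the width was 1134 bp, the count 22 tags, the density 20.2 tags per kb and the top 1% and 10% of genes held 12.8% and 43.3% of the tags. The median count on these chromosomes was 1.45 times that on the other autosomes, 1.06 times per kb and 1.30 times with at least 20 tags. With every gene of a region counted, the top 1% held 15.1% of the tags and 24.7% of genes had a peak. That share was 4.50% for summits within 1 kb and, an alternative chosen after seeing the data, 26.6% for protein-coding genes. The summit density ratio at the start was 0.448 from midpoints. Each alternative kept the ratio below 1, and promoter composition stayed within its interval under every alternative run. No paired analysis was possible because every group has 1 library. With at least 15 tags per listed peak, weaker acetylation was not detectable at this depth.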

Other observations

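Besides the nuclear chromosomes, 3 H3K27ac peaks were listed on the mitochondrial genome, which carries no histones, and none in the HSF1 list. The first, assigned to RNR1, a ribosomal RNA gene, held 210 tags in 3284 bp, or 63.9 tags per kb, the highest density of the H3K27ac list. The other 2, assigned to MIR12136, held 100 and 45 tags, or 32.0 and 25.8 tags per kb, against a median of 20.5 over all H3K27ac peaks.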
